A study of Macaca radiata with 6 samples.

Results

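The genes described take part in the proteolysis of the extracellular matrix in the monkey corpus luteum (CL): the proteinases ADAMTS1, MMP2, MMP9 and MMP16, the metalloproteinase inhibitor TIMP3 and the serine proteinase inhibitor SERPINE2. All probe sets whose only gene symbol in the platform annotation was 1 of these 6 names were taken, whatever their values, which gave 13 probe sets of 24956 with a single symbol and 6 genes of 14132. ADAMTS1 had 2 probe sets, MMP2 had 2, MMP9 had 1, MMP16 had 3, TIMP3 had 1 and SERPINE2 had 4.

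Female bonnet monkeys (Macaca radiata) were given a single subcutaneous injection on day 7 of the luteal phase, and the CL was removed 24 h later. The CET group (n = 3) received Cetrorelix, an antagonist of the GnRH receptor that withdraws pituitary LH from the CL, at 150 µg/kg body weight, and the VEH group (n = 3) received its vehicle, 5.25% glucose. One array designed for the rhesus macaque was used for each sample, so bonnet monkey RNA was read with the probes of a related species. The series text states that both treatments were carried out in the same monkeys, but the labels number the CET samples 1 to 3 and the VEH samples 4 to 6 and pair none of them.

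The CL is built within days from the ruptured follicle by invading capillaries and is broken down again at the end of the cycle, and both steps need the extracellular matrix to be cut. ADAMTS1 is a secreted proteinase that cleaves the proteoglycans versican and aggrecan and is a progesterone-dependent gene of the ovulating follicle in the mouse. MMP2 and MMP9, the gelatinases, cleave denatured collagen and basement membrane collagen, MMP16 is a membrane-anchored metalloproteinase that can activate pro-MMP2, TIMP3 is an inhibitor bound to the matrix that blocks both metalloproteinases and ADAMTS enzymes, and SERPINE2 (protease nexin-1) blocks thrombin, urokinase and plasmin.

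In CL after CET, ADAMTS1 had a lower mean at both of its probe sets, the brightest probe sets of MMP2 and MMP16 also had a lower mean, and TIMP3 and the brightest probe set of SERPINE2 had mean differences of 0.14 and 0.23 on the log2 scale, whose signs turned with another scaling of the arrays. None of these differences passed the adjusted p of limma, the linear model fitted to all 52707 probe sets with Benjamini-Hochberg adjustment at 0.05. That threshold was passed by 0% of all probe sets, and the smallest adjusted p of any probe set was 0.83. At an unadjusted p under 0.05 there were 2 of the 13 member probe sets, both of ADAMTS1 and both lower after CET, where 5.39% of all probe sets had such a p, 2.75% with a lower and 2.63% with a higher mean. Without CET replicate 2, 1 of the 13 had such a p, the brightest MMP16 probe set. Without VEH replicate 5 there was 0, and without VEH replicate 6 there was also 0. Limma without its trend on intensity gave 0, as did a floor at the 20th percentile of signal. Cyclic loess gave 1. The signals as deposited, array medians subtracted, a pseudocount of 16 and array weights each gave 2. Without VEH replicate 4 there were 3, all lower, and without CET replicate 1 there were 2 lower and 1 higher. At the 1.5-fold criterion between group means, 6 of the 13 were called and all 6 were lower after CET, beside 47.7% of all probe sets called in either direction, 23.8% lower and 23.9% higher. With single arrays left out this split did not hold, with 6 lower and 3 higher without CET replicate 1 and 4 lower and 1 higher without CET replicate 3. The arrays of the 2 groups overlapped at all 13 probe sets. They did not overlap at 11.2% of all probe sets, a share from which 13 probe sets of 6 genes cannot be told apart. A mean below VEH was found for 7 of the 13 and for 49.9% of all probe sets. The median log2 fold change was -0.031 over the 13 and 0.0025 over all probe sets.

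Values are given as log2 signals after quantile normalization, fold changes are the difference of mean log2 signal, CET minus VEH, and errors of fold changes are standard errors from limma. Intensities of different probe sets cannot be set against each other, so each is compared only with itself across arrays. Probe sets were called dim under a limit of 7.43, the 40th percentile of all mean log2 values, and 9 of the 13 lay above it. The other 4 were the single MMP9 probe set, the dimmer one of MMP2 and the 2 dimmer ones of MMP16.

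Arrays differed in ways that bear on these values. The 3' over 5' signal ratio of the GAPDH control probe sets grows as RNA is degraded. It was 5.89, 142.9 and 3.03 in CET replicates 1, 2 and 3, against 7.31, 1.79 and 3.07 in VEH replicates 4, 5 and 6. By mean Spearman correlation over probe sets, each CET array was less close to the other CET arrays than to the VEH arrays: 0.664 against 0.756 for CET replicate 1, 0.710 against 0.727 for CET replicate 2 and 0.709 against 0.733 for CET replicate 3. Luteal steroidogenic cell markers were present on all arrays: 6 of the 9 listed had a probe set and all 6 lay above the dim limit. Their mean log2 signal was 13.26, 11.35 and 12.35 in CET replicates 1, 2 and 3, against 13.37, 13.59 and 13.09 in VEH replicates 4, 5 and 6. In whole CL tissue, fewer cells of a type and less RNA per cell cannot be told apart.

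**Figure D1:**
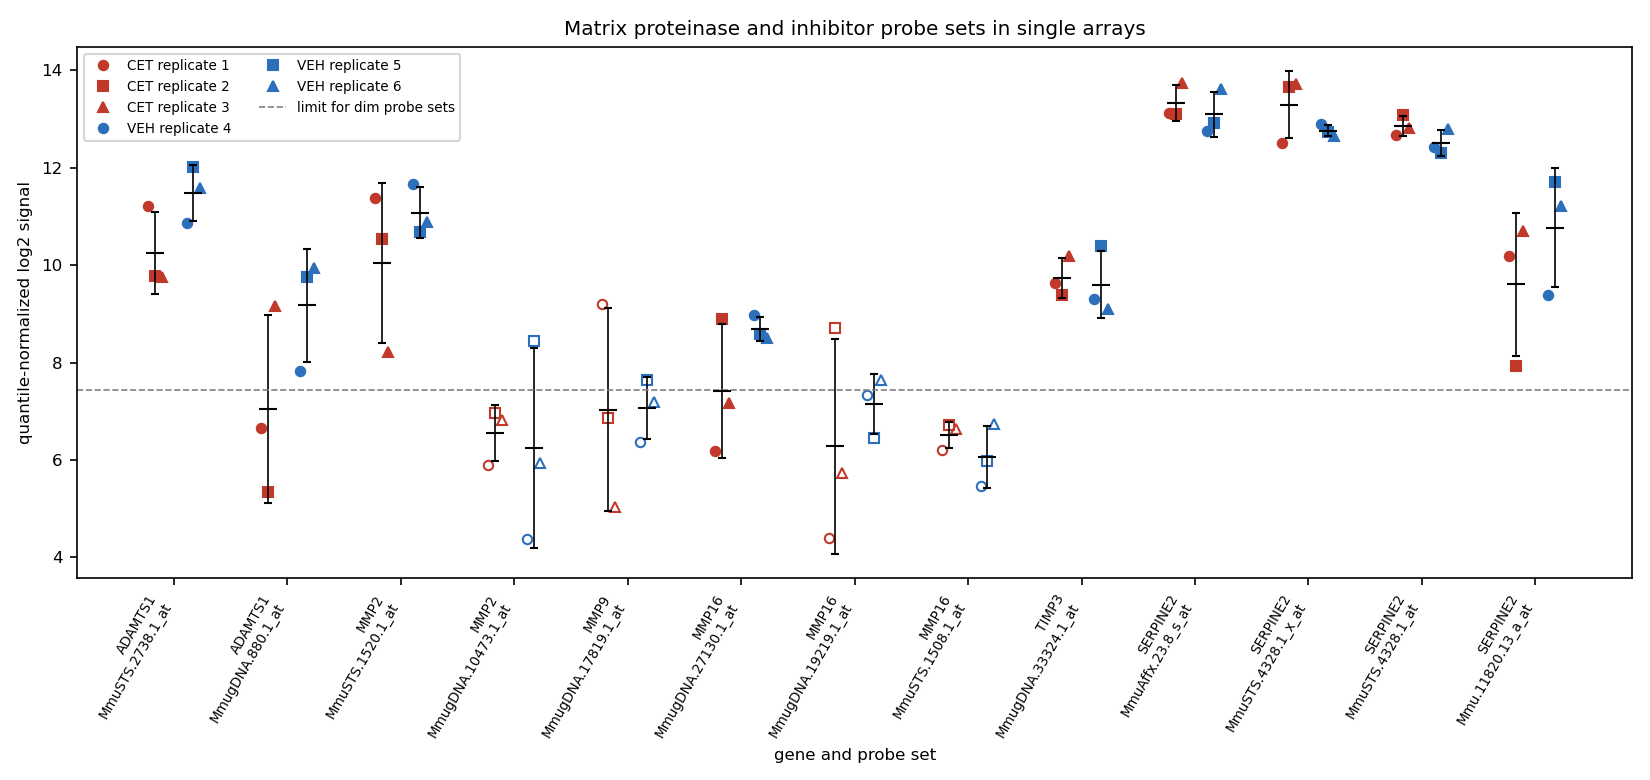
Quantile-normalized log2 signal (vertical axis) of the 13 probe sets of ADAMTS1, MMP2, MMP9, MMP16, TIMP3 and SERPINE2 (horizontal axis) in each CET (red, left of each pair) and VEH (blue, right) array. Bars are the mean and SD of 3 arrays, hollow symbols are probe sets under the dashed dim limit at 7.43, and the CET and VEH arrays overlap at every probe set.

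ADAMTS1 (Entrez gene 707778), the matrix proteinase, was lower on CET replicates 2 and 3 than on every VEH array at its brightest probe set, MmuSTS.2738.1.S1_at. Its log2 signals were 11.22, 9.77 and 9.77 in CET replicates 1, 2 and 3, against 10.87, 12.00 and 11.59 in VEH replicates 4, 5 and 6. The deposited signals behind them were 2336, 924 and 906 after CET and 1860, 4935 and 3218 after VEH. CET replicate 1 lay above VEH replicate 4, and this single pair made the groups overlap. The means were 10.25 ± 0.83 after CET and 11.49 ± 0.58 after VEH (SD, n = 3 each), a log2 fold change of -1.24 ± 0.51 (95% interval -2.36 to -0.11, unadjusted p = 0.034, adjusted p = 0.83 from limma). The exact two-sided permutation test over the 6 arrays gave p = 0.2, where 3 against 3 arrays cannot go below 0.1.

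The other ADAMTS1 probe set, MmugDNA.880.1.S1_at, had a different order among the CET arrays. Log2 signals were 6.65, 5.34 and 9.15 in CET replicates 1, 2 and 3, against 7.83, 9.76 and 9.94 in VEH replicates 4, 5 and 6. Here CET replicate 3, among the lowest at the brightest probe set, was the highest CET array and lay above VEH replicate 4, while CET replicates 1 and 2 lay below all VEH arrays. The mean after CET, 7.05 ± 1.94, was under the dim limit, and the mean after VEH was 9.17 ± 1.17 (SD, n = 3 each). CET minus VEH was -2.12 ± 0.95 (95% interval -4.21 to -0.036, unadjusted p = 0.047, adjusted p = 0.83 from limma, exact permutation p = 0.2).

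Among the VEH arrays, replicate 4 was the lowest at both ADAMTS1 probe sets and had the highest 3' over 5' ratio, 7.31 for GAPDH. CET replicate 2 was the CET array on which both probe sets were low, and it had the highest ratio of the 6 arrays. CET replicate 3, at 9.77 as low as CET replicate 2 at the brightest probe set, had a ratio of only 3.03. VEH replicate 6, at 11.59 there, had 3.07. The part of RNA degradation in the ADAMTS1 values was not tested. Without CET replicate 2, the difference was -1.0 at the brightest probe set (unadjusted p = 0.092, adjusted p = 0.96 from limma) and -1.27 at the other (unadjusted p = 0.18, again with an adjusted p of 0.96). When the 3' over 5' ratio of each array was a covariate, both probe sets had -0.96, with unadjusted p of 0.098 and 0.22 and an adjusted p of 0.93 from limma. Leaving out CET replicate 1, the CET array closest to the VEH arrays, the brightest probe set had -1.72 (unadjusted p = 0.0038, adjusted p = 0.25 from limma). ADAMTS1 was below VEH at both probe sets under every alternative run. Whether its unadjusted p fell under 0.05 depended on the processing as well as on single arrays. At the brightest and the other probe set it was 0.084 and 0.067 by limma without the trend on intensity. With a floor at the 20th percentile of signal, limma gave 0.059 and 0.13. On the signals as deposited limma gave 0.028 and 0.048, and with array weights 0.0065 and 0.029. On the same 2 CET arrays as the brightest ADAMTS1 probe set, 5 of the 6 steroidogenic markers lay below all VEH arrays, CYP19A1 being the exception. The epithelial markers KRT8 and KRT18 and the fibroblast markers COL1A1 and COL1A2 did so too. So did the endothelial marker CDH5 and the smooth muscle marker TAGLN, but no macrophage, neutrophil or lymphocyte marker did on both. The dimmer ADAMTS1 probe set was low on CET replicates 1 and 2 instead. The share of all measured genes with this pattern was not counted, and the part of steroidogenic cells in the difference was not tested.

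**Figure D2:**
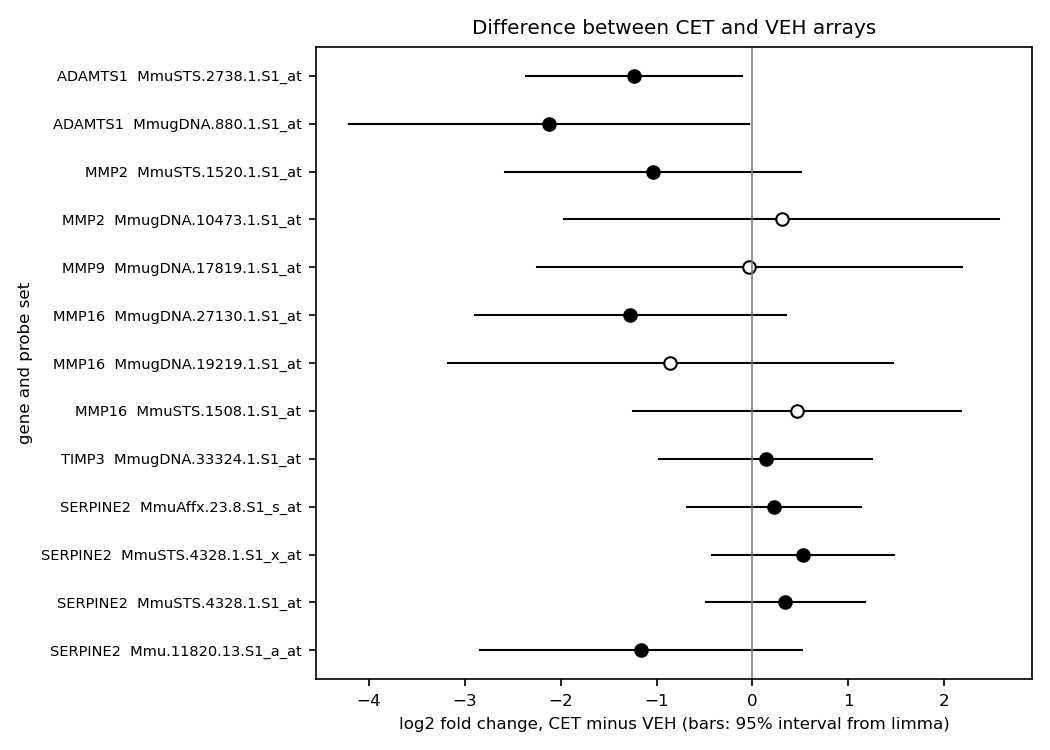
Log2 fold change, CET minus VEH (horizontal axis), of the 13 probe sets (vertical axis) with 95% intervals from limma; hollow points lie under the dim limit. The intervals of the 2 ADAMTS1 probe sets lie below 0, the other 11 hold 0, and the sign of 3 SERPINE2 points and of TIMP3 turns negative when array medians are subtracted.

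MMP2 (Entrez gene 698478), gelatinase A, was low on a single CET array at its brightest probe set, MmuSTS.1520.1.S1_at. Log2 signals were 11.38, 10.53 and 8.21 in CET replicates 1, 2 and 3, against 11.67, 10.68 and 10.88 in VEH replicates 4, 5 and 6. CET replicate 1 lay among the VEH arrays, CET replicate 2 just under the lowest of them, and CET replicate 3 far below all. On the log2 scale the difference was -1.04 ± 0.70 (95% interval -2.58 to 0.50, adjusted p = 0.83 from limma, exact permutation p = 0.4). Leaving out CET replicate 3 gave -0.12, and leaving out CET replicate 1 gave -1.71, so that CET replicate 3 decided its size. Endothelial markers had their lowest mean on the same array: the mean log2 signal of the 6 measured of 8 listed was 11.34, 11.13 and 9.90 in CET replicates 1, 2 and 3, against 11.66, 11.11 and 10.74 in VEH replicates 4, 5 and 6. Markers of pericytes and smooth muscle, of which only TAGLN and MYH11 were measured, averaged 10.68, 10.65 and 9.39 after CET and 9.96, 10.40 and 11.08 after VEH. For fibroblasts the 5 measured of 7 listed markers, COL1A1 among them, averaged 11.39, 10.65 and 10.82 after CET and 11.59, 11.31 and 11.77 after VEH. Of the 6 endothelial markers, CDH5, TIE1, VWF and PECAM1 lay below all VEH arrays on CET replicate 3, and TEK lay above them. A lowest mean on that array was not particular to endothelium. Pericyte and smooth muscle (9.39), macrophage (8.78) and lymphocyte (7.98) markers had theirs there too. The lowest mean of steroidogenic, fibroblast and epithelial markers was on CET replicate 2, and of neutrophil and erythrocyte markers on CET replicate 1. KDR, a defining endothelial marker, lay under the dim limit, and the part of these cell types in the MMP2 value was not tested.

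The second MMP2 probe set, MmugDNA.10473.1.S1_at, lay under the dim limit and did not follow the first. Log2 signals were 5.89, 6.95 and 6.82 in CET replicates 1, 2 and 3, against 4.37, 8.44 and 5.94 in VEH replicates 4, 5 and 6. The VEH arrays enclosed all CET arrays here. Its log2 fold change was 0.31 ± 1.04 (95% interval -1.97 to 2.58, adjusted p = 0.97 from limma), and it turned to -0.28 with a floor at the 20th percentile of signal and to -0.64 without VEH replicate 4. Averaged over both probe sets, MMP2 had -0.37.

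MMP9 (Entrez gene 708084), gelatinase B, was read by 1 probe set, MmugDNA.17819.1.S1_at, whose mean lay under the dim limit. Log2 signals were 9.21, 6.86 and 5.04 in CET replicates 1, 2 and 3, against 6.37, 7.64 and 7.19 in VEH replicates 4, 5 and 6. The highest and the lowest of the 6 arrays were both CET arrays, with the VEH arrays between them. The log2 fold change was -0.031 ± 1.01 (95% interval -2.25 to 2.19, adjusted p = 0.997 from limma, exact permutation p = 1), and a direction could not be given: it was 0.97 without CET replicate 3, -1.12 without CET replicate 1 and 0.18 on the signals as deposited. MMP9 is stored in neutrophil granules, and the mean log2 signal of the 4 measured of 6 listed neutrophil markers was 8.27, 9.41 and 8.53 in CET replicates 1, 2 and 3, against 8.55, 8.40 and 8.39 in VEH replicates 4, 5 and 6. That low mean on CET replicate 1 came from S100A8, at 6.0 there against 8.29 to 8.49 in VEH samples. The other 3 measured markers, ELANE, MPO and CSF3R, lay above all VEH arrays on that array. On CET replicate 2 all 4 measured markers lay above all VEH arrays, while MMP9 lay inside the VEH range. On CET replicate 3, where MMP9 was lowest, ELANE and S100A8 lay above all VEH arrays and CSF3R below them. The 5 measured of 6 listed macrophage markers averaged 9.26, 10.41 and 8.78 after CET and 9.47, 9.41 and 9.37 after VEH. The part of both cell types in the MMP9 value was not tested.

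MMP16 (Entrez gene 695120), the membrane-anchored activator of pro-MMP2, varied among CET arrays and little among VEH arrays at its brightest probe set, MmugDNA.27130.1.S1_at. Log2 signals were 6.17, 8.89 and 7.17 in CET replicates 1, 2 and 3, against 8.97, 8.59 and 8.50 in VEH replicates 4, 5 and 6. CET replicates 1 and 3 lay below all VEH arrays and under the dim limit, and CET replicate 2 lay inside the VEH range. The means were 7.41 ± 1.37 after CET and 8.69 ± 0.25 after VEH (SD, n = 3 each). This gave a log2 fold change of -1.27 ± 0.74 (95% interval -2.90 to 0.35, adjusted p = 0.83 from limma, exact permutation p = 0.3).

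For MMP16 the array with the highest 3' over 5' ratio was the high one. Without CET replicate 2 the log2 fold change was -2.01 (unadjusted p = 0.018, adjusted p = 0.96 from limma), with the ratio as a covariate it was -1.88, and without CET replicate 1 it was -0.65. The 2 other MMP16 probe sets were dim and differed from each other in sign. MmugDNA.19219.1.S1_at had 4.40, 8.71 and 5.74 in CET replicates 1, 2 and 3, against 7.33, 6.45 and 7.64 in VEH replicates 4, 5 and 6, a log2 fold change of -0.86 ± 1.06 that turned to 0.085 without CET replicate 1. Its CET arrays stood in the same order as at the brightest probe set. MmuSTS.1508.1.S1_at ranged from 6.21 to 6.71 after CET and from 5.47 to 6.73 after VEH, with a log2 fold change of 0.46 ± 0.78. Averaged over the 3 probe sets, MMP16 had -0.56.

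**Figure D3:**
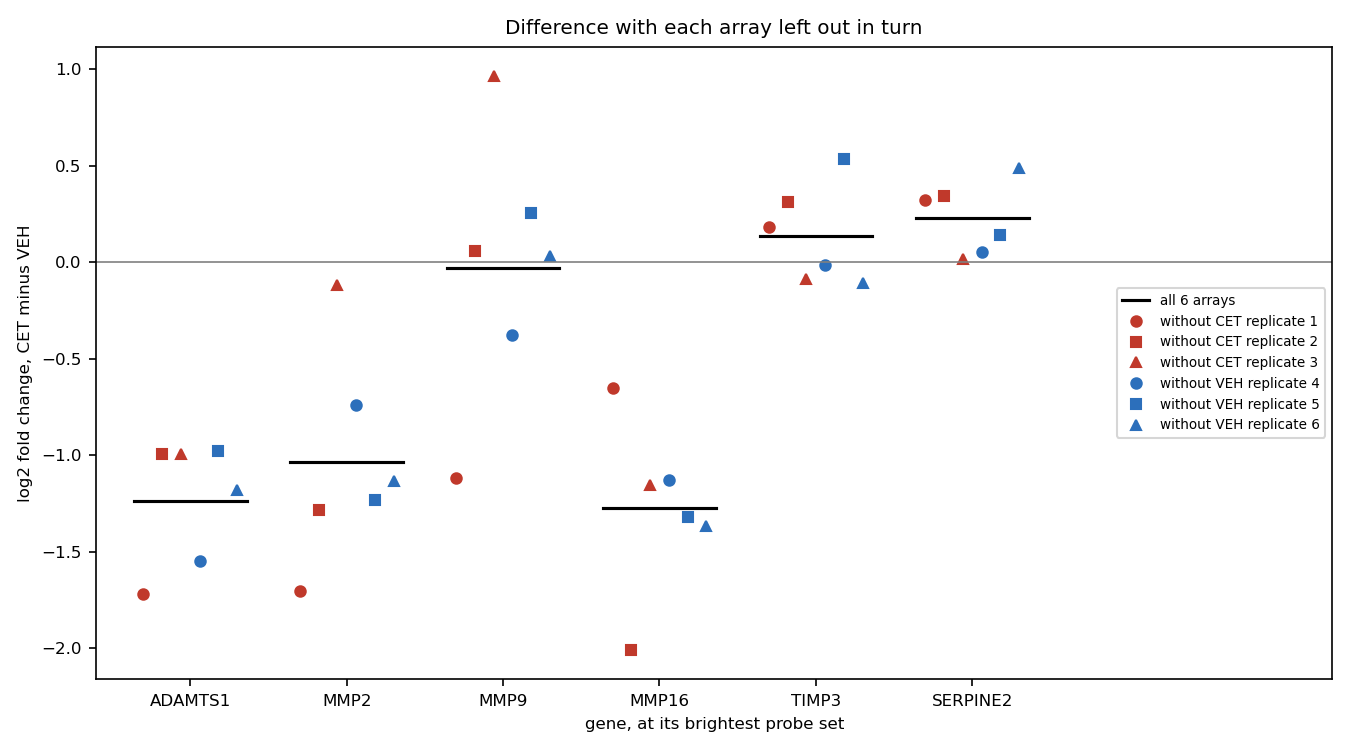
Log2 fold change, CET minus VEH (vertical axis), of each gene at its brightest probe set (horizontal axis) with all 6 arrays (black line) and with each array left out in turn (symbols). ADAMTS1, MMP2 and MMP16 stay below 0 with MMP2 at -0.12 without CET replicate 3, MMP9 spans -1.12 to 0.97, TIMP3 spans -0.11 to 0.53, and SERPINE2 stays above 0 here but turns to -0.20 on the signals as deposited.

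TIMP3 (Entrez gene 574381), the inhibitor, was read by MmugDNA.33324.1.S1_at, with log2 signals of 9.64, 9.38 and 10.18 in CET replicates 1, 2 and 3, against 9.30, 10.39 and 9.11 in VEH replicates 4, 5 and 6. The CET arrays all lay within the VEH range. The means were 9.73 ± 0.41 after CET and 9.60 ± 0.69 after VEH (SD, n = 3 each), a log2 fold change of 0.14 ± 0.51 (95% interval -0.97 to 1.25, adjusted p = 0.97 from limma, exact permutation p = 0.7) whose sign turned when CET replicate 3, VEH replicate 4 or VEH replicate 6 was left out (-0.013 to -0.11) and with array medians subtracted (-0.073). The interval covers changes of up to about 1 log2 unit in either direction.

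SERPINE2 (Entrez gene 707121) was the only one of the 6 genes with probe sets of the shared types. On this array design a name ending in _s_at can be shared by transcripts of several genes, one in _x_at may cross-hybridise, and one in _a_at reads alternative transcripts of 1 gene. The brightest, MmuAffx.23.8.S1_s_at, had 13.13, 13.10 and 13.75 in CET replicates 1, 2 and 3, against 12.75, 12.92 and 13.62 in VEH replicates 4, 5 and 6. CET replicate 3 was the highest array and VEH replicate 6 lay above the other CET arrays. Its log2 fold change was 0.23 ± 0.42 (95% interval -0.68 to 1.14, adjusted p = 0.93 from limma), against -0.20 on the signals as deposited and -0.41 with array medians subtracted.

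The next 2 SERPINE2 probe sets also had higher means after CET by quantile normalization. MmuSTS.4328.1.S1_x_at had 12.50, 13.66 and 13.72 in CET replicates 1, 2 and 3, against 12.89, 12.74 and 12.66 in VEH replicates 4, 5 and 6, a log2 fold change of 0.53 ± 0.43 that turned to -0.15 with array medians subtracted. MmuSTS.4328.1.S1_at had 12.67, 13.08 and 12.82 in CET replicates 1, 2 and 3, against 12.43, 12.30 and 12.80 in VEH replicates 4, 5 and 6, a log2 fold change of 0.34 ± 0.38 that turned to -0.081 on the deposited signals and -0.28 with array medians subtracted. At both, 2 of the 3 CET arrays lay above all VEH arrays. The residual SD at MmuSTS.4328.1.S1_at, 0.237, was the lowest of the 13, which ranged up to 1.62 beside a median of 0.846 over all probe sets.

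The last SERPINE2 probe set, the one ending in _a_at, had a lower mean after CET. Log2 signals were 10.19, 7.93 and 10.70 in CET replicates 1, 2 and 3, against 9.38, 11.72 and 11.21 in VEH replicates 4, 5 and 6. CET replicate 2 was the lowest array, VEH replicate 4 the next, and CET replicates 1 and 3 lay inside the VEH range. The 6 arrays stood in the reverse order of their 3' over 5' ratio, taken as the mean log2 ratio of GAPDH and ACTB. The log2 fold change of this probe set was -1.16 ± 0.77 (95% interval -2.84 to 0.52, adjusted p = 0.83 from limma). Leaving out CET replicate 2 gave -0.32, and the 3' over 5' ratio as a covariate gave -0.091. The part of RNA degradation in this probe set was not tested. Averaged over all 4 probe sets, SERPINE2 had -0.014.

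The genes whose arrays rose and fell most like a member were found by the root mean square difference of log2 values, each gene centred on its own mean, over the 6 arrays and 10928 measured genes. For ADAMTS1 these were PDZD2 (0.073) and EMC2 (0.11), beside a median of 0.97 over all genes compared (0.73 to 1.19 for the other members). For MMP2 they were RPL4 (0.16) and FDXR (0.17), for MMP16 AMT (0.10) and ADGRG2 (0.17), for TIMP3 PUS3 (0.14) and NARF (0.15), and for SERPINE2 ZNF703 (0.094) and SERPINB12 (0.11). None of these 10 genes belongs to the lists of matrix genes used here. With 6 arrays and this many genes, close matches are a description only.

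**Figure D4:**
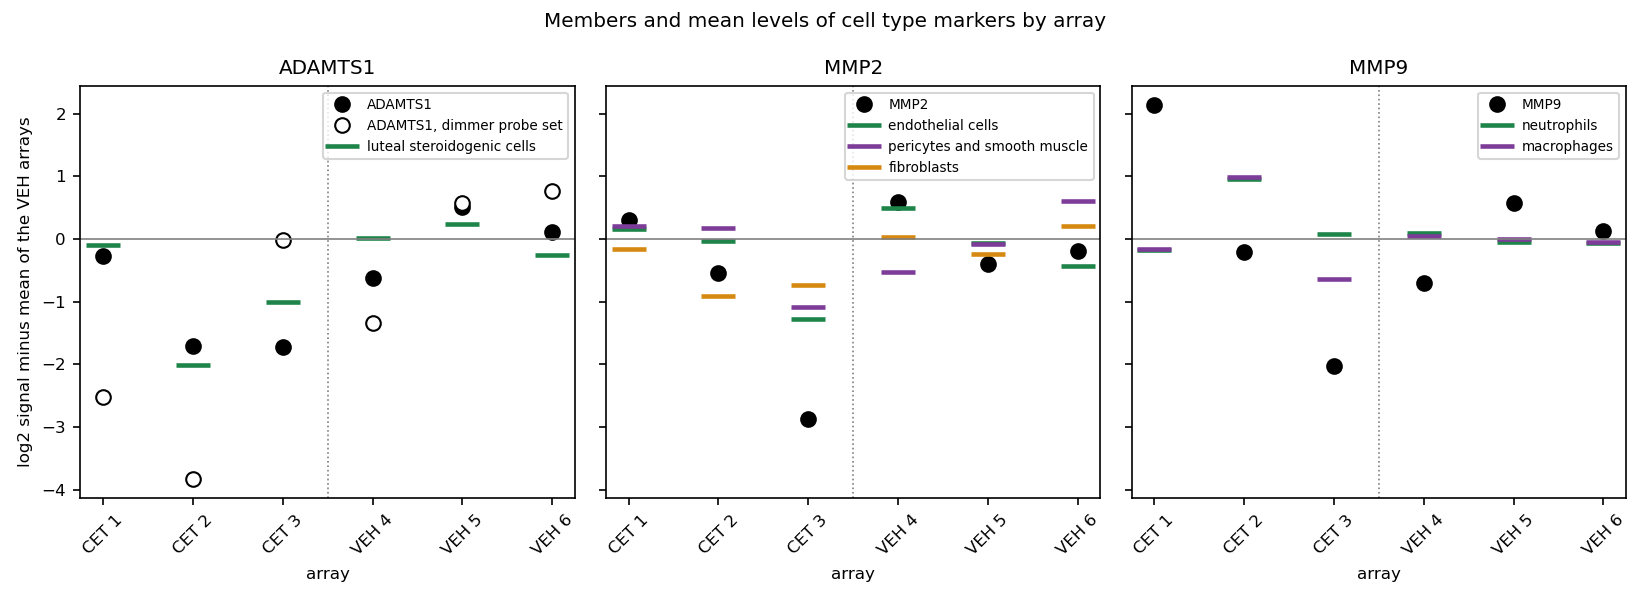
Log2 signal minus the mean of the VEH arrays (vertical axis) on each array (horizontal axis) for ADAMTS1, MMP2 and MMP9 (circles) and for the mean of cell type markers (coloured bars). ADAMTS1 at its brightest probe set and the steroidogenic markers are low on CET replicates 2 and 3. MMP2 is lowest on CET replicate 3, as are the endothelial, the pericyte and smooth muscle, and the macrophage markers. MMP9 is highest on CET replicate 1, where the neutrophil mean is lowered by S100A8 alone. There ELANE, MPO and CSF3R lie above all VEH arrays. On CET replicate 2 all 4 measured neutrophil markers do so, while MMP9 lies inside the VEH range.

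The other genes of matrix proteolysis were read from 7 lists of 96 genes in all, of which 77 had a probe set and 57 lay above the dim limit at their brightest probe set. None of the 57 passed the adjusted p. At an unadjusted p under 0.05 there was 1 lower and 1 higher gene, where 3.19% of the 10929 measured genes were lower and 2.1% higher with such a p. A lower mean after CET was found for 34 of the 57 and a higher one for 23, beside 57.7% of all measured genes with a lower mean. The groups did not overlap for 4 of the 57, all with CET above VEH, beside 11.7% of measured genes in either direction and 4.71% in this one. Among these 4, MMP8 passed the dim limit only through its CET arrays. The median log2 fold change was -0.23 over the 57 and -0.13 over all measured genes.

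Among the other matrix metalloproteinases, 8 of 18 with a probe set were measured, 6 with a higher and 2 with a lower mean after CET, and the median log2 fold change was 0.44. The interstitial collagenases MMP1 and MMP13 and the stromelysin MMP3 lay under the dim limit. MMP8, neutrophil collagenase, had 8.27, 8.11 and 7.71 in CET replicates 1, 2 and 3, against 6.16, 7.39 and 7.04 in VEH replicates 4, 5 and 6. All CET arrays lay above all VEH arrays and above the dim limit, and all VEH arrays lay under it. The mean over the 6 arrays, 7.45, was just above the limit of 7.43, and the VEH mean was 6.86. MMP8 was therefore counted as measured only through its CET arrays, and the lack of overlap is not independent of that filter. The log2 fold change was 1.16 ± 0.68 (adjusted p = 0.83 from limma, exact permutation p = 0.1, the smallest possible). MMP14, the membrane-anchored main activator of pro-MMP2, had a higher mean at 3 of 3 probe sets and 0.64 ± 0.59 at the brightest, where CET replicate 1 lay below all VEH arrays and the other CET arrays above them. That value was 1.28 without CET replicate 1 (unadjusted p = 0.016 from limma), 0.41 without CET replicate 2 and 0.21 without CET replicate 3.

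Of the other ADAMTS proteinases, 7 of 10 measured had a lower mean and the median was -0.44, but -0.073 when each gene was averaged over its probe sets. ADAMTS7 had -1.16 ± 0.66, ADAMTS3, a procollagen N-proteinase, had -0.96 ± 0.58, and ADAMTS9, which like ADAMTS1 cleaves versican, had -0.74 ± 0.53 with 4 of 5 probe sets lower (adjusted p of 0.83 to 0.84 from limma). Leaving out CET replicate 2, whose 3' over 5' ratio was the highest, gave -0.57 for ADAMTS3 and -0.30 for ADAMTS9. With CET replicate 1 left out ADAMTS3 had -1.53, and with VEH replicate 5 left out ADAMTS9 had -0.46. Of the ADAM sheddases, membrane proteinases that release cell surface proteins, 4 of 5 measured had a lower mean, among them ADAM9 (-1.23 ± 0.70) and ADAM10 (-0.37 ± 0.42, 3 of 3 probe sets). Both rested in part on CET replicate 2, without which ADAM9 had -0.28 and ADAM10 -0.18, while ADAM10 had -0.66 without VEH replicate 4 and -0.15 without VEH replicate 5. The median of the ADAM sheddases, -0.37, was that of ADAM10, and without CET replicate 3 it was 0.082, that of ADAM19.

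Of the other inhibitors, all 4 measured had a lower mean, with a median of -0.44. TIMP1, the secreted inhibitor, had 15.63, 14.88 and 15.30 in CET replicates 1, 2 and 3, against 15.58, 15.81 and 15.63 in VEH replicates 4, 5 and 6. Its log2 fold change was -0.40 ± 0.42 with 3 of 3 probe sets lower, but it turned to 0.17 by cyclic loess. TIMP2, which forms the complex that activates pro-MMP2, had -0.34 ± 0.60, and 0.40 without CET replicate 1. RECK, a membrane-anchored inhibitor of MMPs, had -0.47 ± 0.58, and TFPI2, a Kunitz-type inhibitor of plasmin in the matrix, had -1.30 ± 0.79 with 4 of 5 probe sets lower. Without CET replicate 2, TIMP1 had -0.21, RECK -0.30 and TFPI2 -0.50, and without CET replicate 1, RECK had -0.78 and TFPI2 -1.99. RECK had -0.77 without VEH replicate 4 and -0.12 without VEH replicate 5.

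In the plasminogen activator system, 6 of 9 measured genes had a lower and 3 a higher mean, and the median of -0.052 turned to 0.067 by cyclic loess. PLAU, the urokinase that SERPINE2 blocks, had 10.21, 8.94 and 8.52 in CET replicates 1, 2 and 3, against 9.48, 11.01 and 10.21 in VEH replicates 4, 5 and 6. CET replicates 2 and 3 lay below all VEH arrays, as for ADAMTS1, and the log2 fold change was -1.01 ± 0.58 (adjusted p = 0.83 from limma) with 2 of 2 probe sets lower. It was -0.66 without CET replicate 3 and -0.62 without VEH replicate 5. F2R, the thrombin receptor, had -0.75 ± 0.73, and 0.20 without CET replicate 2.

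The regulators of metalloproteinases held the gene with the smallest p of all lists. TGFB1, a growth factor released from the matrix by proteinases and a regulator of their genes, had 10.46, 11.40 and 11.72 in CET replicates 1, 2 and 3, against 9.60, 9.59 and 9.57 in VEH replicates 4, 5 and 6. All CET arrays lay above all VEH arrays, which hardly differed among themselves. The log2 fold change was 1.60 ± 0.45 (unadjusted p = 0.0043, adjusted p = 0.83 from limma, exact permutation p = 0.1). A second, dim TGFB1 probe set had the opposite direction, with 4.29, 5.48 and 5.55 after CET against 7.29, 6.74 and 6.77 after VEH. There all CET arrays lay below all VEH arrays. Its log2 fold change was -1.83 ± 0.80 (unadjusted p = 0.043, adjusted p = 0.83 from limma, exact permutation p = 0.1). CD44, the hyaluronan receptor that holds MMP9 at the cell surface, also had every CET array (9.42, 9.99 and 10.24) above every VEH array (8.19, 9.27 and 8.97), with 1.07 ± 0.50 (unadjusted p = 0.056, adjusted p = 0.83 from limma). The median of this list, 0.11, turned to -0.12 on the signals as deposited.

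**Figure D5:**
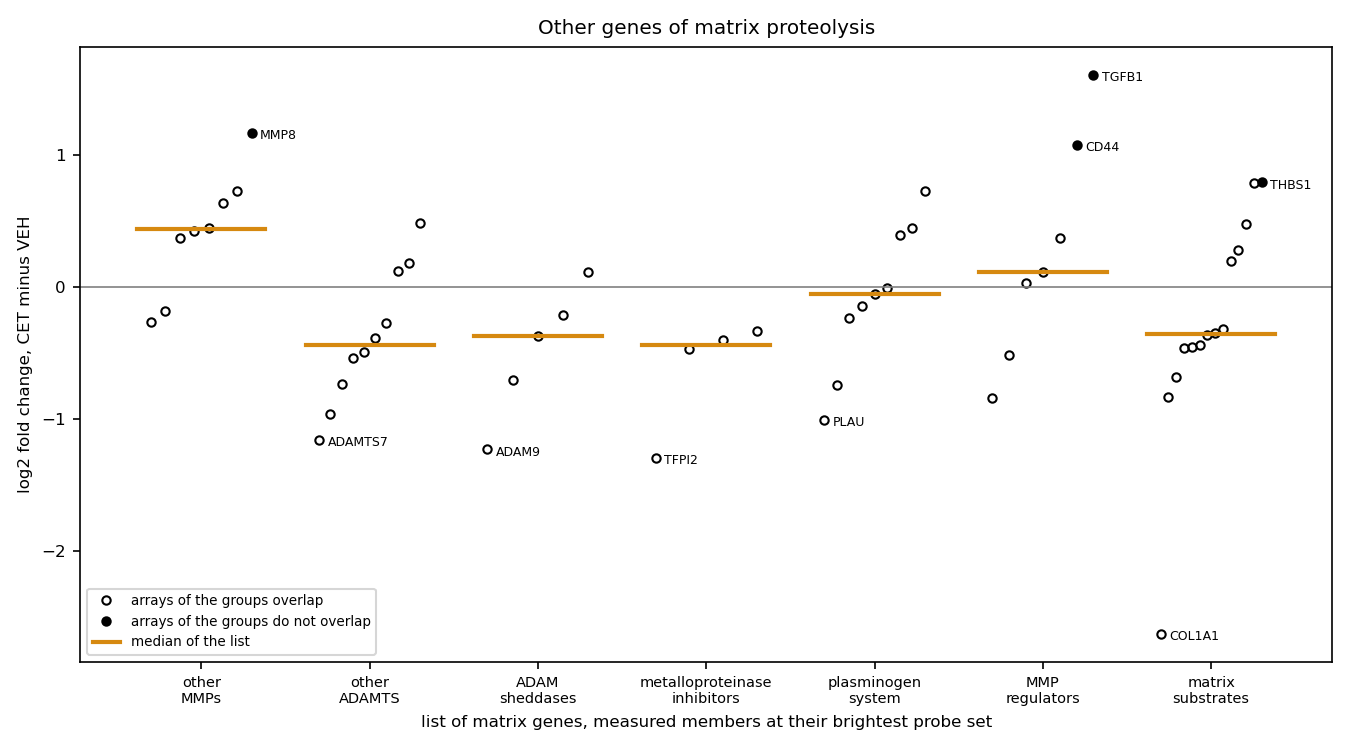
Log2 fold change, CET minus VEH (vertical axis), of the 57 measured genes of 7 lists of matrix proteolysis (horizontal axis) at their brightest probe sets, with list medians as bars and filled points where the CET and VEH arrays do not overlap. MMP8, TGFB1, CD44 and THBS1 are the 4 filled points, all above 0, and MMP8 passed the dim limit only through its CET arrays. COL1A1 is the lowest at -2.63, and the medians of the plasminogen system and the MMP regulators change sign on the signals as deposited or by cyclic loess.

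Of the matrix substrates and their partners, 9 of 14 measured genes had a lower and 5 a higher mean, with a median of -0.36. COL1A1, the fibrillar collagen chain whose denatured form the gelatinases cut, had 12.12, 8.42 and 6.56 in CET replicates 1, 2 and 3, against 12.56, 10.98 and 11.44 in VEH replicates 4, 5 and 6. CET replicates 2 and 3 lay far below the VEH arrays and CET replicate 1 inside their range. The log2 fold change was -2.63 ± 1.08 (unadjusted p = 0.032, adjusted p = 0.83 from limma), and the second, dim probe set had 0.32 ± 0.83. At the first, leaving out CET replicate 3 gave -1.39 and leaving out CET replicate 1 gave -4.17. VCAN, the versican that ADAMTS1 cleaves, had 0.47 ± 0.47 at its brightest probe set, which turned to -0.098 with array medians subtracted, and a lower mean at its 4 other probe sets. THBS1, thrombospondin-1, which binds TGFB1 and MMP2, had 9.56, 9.84 and 9.25 in CET replicates 1, 2 and 3, against 8.76, 8.58 and 8.94 in VEH replicates 4, 5 and 6, a log2 fold change of 0.79 ± 0.47 with groups that did not overlap and with 3 of 5 probe sets higher.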

How the data were processed

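CL from 3 CET and 3 VEH samples of bonnet monkeys were measured on Affymetrix rhesus macaque arrays, 1 array per sample. The deposited values are intensity values, MAS5 signals of each probe set (linear, not logged), and the authors' scaling left every array with a mean of 500 once its highest and lowest 2% of signals were trimmed. The sources used here give no MAS5 version and no detection calls.

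A floor of 1 was applied, log2 taken, and quantile normalization run over 52865 probe sets. After 158 control probe sets were left out, 52707 were tested in R 4.3.3 with limma 3.58.1 (trend on intensity, group as the only term, Benjamini-Hochberg adjustment). The platform annotation gave a single symbol for 24956 probe sets, several for 361 and none for 27390, and only the first were named. Genes were taken at their brightest probe set (highest 6-array mean) and called measured where that mean lay above the 40th percentile. Median spread, 0.846 (residual SD, log2), and the number of arrays limit the precision. The labels do not say that samples within a group came from separate monkeys, so p-values measure the spread between these samples. Both groups are described as from the same monkeys but are not paired by label, and no animal term was fitted.

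The members and gene lists were chosen with earlier results of these data known. Besides the members, up to 3 measured genes with the smallest unadjusted p in each list and the 2 genes most like each member are named. TIMP2, VCAN and the dim MMP1, MMP3 and MMP13 were added for their role after their values were seen. Of the genes that the rule names, MMP26, SERPINC1, CTSL and ACAN are not described further. The alternatives were the signals as deposited, array medians subtracted, cyclic loess, a floor at the 20th percentile, a pseudocount of 16, dim probe sets left out, limma without the trend, array weights, the 3' over 5' ratio as a covariate (mean log2 ratio of the GAPDH and ACTB control probe sets), the methods' t-test, the mean over probe sets of a gene, and each replicate left out.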

Additional observations from a re-analysis of the deposited data

Results flagged for a closer look

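On CET replicate 2 the control probe sets for the 3' end of housekeeping transcripts were bright relative to those for the 5' end, beyond the range of the VEH arrays for all 3 transcripts. The 3' over 5' ratio was 142.9 for GAPDH in CET replicate 2, against 1.79 to 7.31 in VEH samples. For ACTB it was 37.2, against 2.12 to 22.4 in VEH samples, and for EF1A it was 42.2, against 0.929 to 9.56 in VEH samples. The levels of these probe sets were not compared between the groups, but the GAPDH and ACTB ratios were used as a covariate in an alternative fit. Groups of 3 arrays were too small to be tested for single outlying values.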

How the results depend on the processing

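No probe set passed the adjusted p under any alternative. The number at an unadjusted p under 0.05 was 2840 (1388 higher and 1452 lower), 1756 with dim probe sets left out, 5086 with array weights, 2729 by the methods' t-test and 1696 (without VEH replicate 5) to 6997 (without CET replicate 1) with single arrays left out. The split was 2085 higher and 1253 lower on the signals as deposited, where the median of all probe sets moved to 0.17, and 1273 higher and 2298 lower with array medians subtracted. Of the 13 member probe sets, 6 kept their sign under all alternatives, and the smallest adjusted p of any was 0.25. MMP9 turned to 0.18 as deposited, 0.064 with the pseudocount and 0.35 with the floor, and ranged from -1.12 to 0.97 with single arrays left out. As a dim probe set it gave nothing where such probe sets were dropped, like the dimmer ones of MMP2 and MMP16. The dim MMP2 probe set turned to -0.28 with the floor and ranged from -0.64 to 1.40 with single arrays left out, and MMP16 at MmugDNA.19219.1.S1_at ranged from -2.07 to 0.085. TIMP3 turned to -0.073 with array medians subtracted and ranged from -0.11 to 0.53 with single arrays left out. SERPINE2 turned to -0.20 as deposited, -0.41 with array medians subtracted and -0.014 averaged over probe sets, with -0.15 and -0.28 with array medians and -0.081 as deposited at dimmer probe sets. Of the 23 other genes named or selected by the rule, 5 changed sign: TIMP1 (0.17 by cyclic loess), F2R (0.15 with the 3' over 5' covariate, -1.24 to 0.20 with single arrays left out), VCAN (-0.098 with array medians), ADAM19 (-1.31 to 0.082) and TIMP2 (-0.76 to 0.40). List medians moved for the other ADAMTS proteinases (-0.073 averaged over probe sets), the ADAM sheddases (-0.81 averaged over probe sets, -0.76 to 0.082 with single arrays left out), the plasminogen activator system (-0.25 as deposited, -0.45 with array medians, 0.067 by cyclic loess, 0.15 with the covariate, -0.099 to 0.11 with single arrays left out), the regulators (-0.12, -0.32 and -0.30 as deposited, with array medians and with the covariate, -0.16 to 0.43 with single arrays left out) and the substrates (-0.72 with array medians). Over all 57 genes the median was -0.45 with array medians, -0.11 by cyclic loess, -0.099 with array weights, -0.097 averaged over probe sets and -0.22 to -0.047 with single arrays left out. The cause of these shifts was not tested. No paired analysis was possible because the labels number the CET samples 1 to 3 and the VEH samples 4 to 6, so that the groups share no number. With dim probe sets near background, small differences of MMP9 and of the dimmer MMP2 and MMP16 probe sets were not detectable.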
